A study of Rattus norvegicus with 16 samples.

Results

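The genes described here are 8 genes of the calcium-calmodulin kinase system of the rat brain: the 4 genes for the subunits of calcium/calmodulin-dependent protein kinase II, or CaMKII (Camk2a, Camk2b, Camk2d and Camk2g), the genes for its 2 small inhibitor proteins (Camk2n1 and Camk2n2), Camk4, which encodes CaMKIV, and Camkk2, which encodes a kinase that activates CaMKIV. They were chosen by name. A transcript cluster, the unit of measurement on these arrays, was taken where its annotation gave exactly the symbol of 1 of these genes, and each of the 8 genes had exactly 1 such cluster among 27342 clusters, of which 15097 carried exactly 1 gene symbol. The study asked how a diet with curcumin, a polyphenol of turmeric, changes gene expression in the aged rat brain, in hippocampus and cortex. Male Sprague-Dawley rats, 15 months old, received chow with curcumin or standard laboratory chow (control) for 6 or 12 weeks. The tissues, diets and durations gave 8 groups of 2 Affymetrix arrays, 16 in all. Each array measured RNA from the pooled tissue of 3 of the 6 rats of a group, so single rats were not measured. The labels call the arrays of a group biological replicates, whereas the design text also speaks of duplicate arrays from each RNA sample. The p-values therefore measure only the spread between these arrays, which may be technical.

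CaMKII is a multi-subunit enzyme that is switched on when calcium-loaded calmodulin binds it, and it can then phosphorylate itself and stay active after the calcium signal has passed. In the forebrain it is among the most abundant proteins of excitatory synapses, where it acts on glutamate receptors and scaffold proteins during long-term potentiation and memory formation. CaMKIV works mainly in the nucleus, where it acts on transcription factors such as CREB, and needs phosphorylation by a CaMK kinase such as CaMKK2 for full activity.

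Several arrays held RNA marking neighbouring brain regions, and these arrays enter the comparisons below. All values are log2 intensities, and for a list of marker genes the mean over its measured members is given. The 6 measured olfactory bulb markers (Pbx3 and Doc2g the brightest) stood at 7.86 in replicate 2 of the control cortex at 6 weeks and between 5.98 and 6.39 on the other 15 arrays. The 6 measured striatal markers (Pde10a and Ppp1r1b the brightest) stood at 9.00 in replicate 1 of that same group. They stood at 8.38 in replicate 2 of the control cortex at 12 weeks, at 7.96 and 7.53 in replicate 2 of the curcumin cortex at 6 and 12 weeks, and between 6.66 and 6.86 on the remaining 12 arrays. The 7 choroid plexus markers (Ttr and Aqp1 the brightest) stood at 8.72 and 8.17 in replicate 2 of the control and curcumin hippocampus at 6 weeks, at 6.50 in replicate 1 of that control group and between 5.67 and 6.02 elsewhere. The mean of the 4 measured markers of dentate granule cells, a cell type of the hippocampus, ranged from 6.89 to 7.24 on the 8 hippocampal arrays and from 6.09 to 6.58 on the 8 cortical arrays. Of these 4 genes, 2 were called higher in the hippocampus, with C1ql2 at 1.84, and 1 was called lower, Pdzd2 at -0.48.

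The sequences around the transcription starts of 4 of the genes are shown because these genes were called between the tissues, 2 of them in each direction. Each is 250 bases before and 50 bases after a start that RefSeq gives on the rat assembly GRCr8, written 5′ to 3′ on the gene's own strand. The annotated Camk4 gene began at this start. The annotated Camk2a, Camk2b and Camk2d genes began upstream of it. The whole Camk2a window and much of the Camk2b and Camk2d windows thus lay inside the gene. Capitals mark matches, on either strand, to the cAMP response element TGACGTCA, its core TGACG, the GC box GGGCGG, the CCAAT box CCAAT and the TATA box TATAAA. The core lies inside the full element, so a full element would be counted under both.
Camk2a chr18:56648930-56649229 (plus strand): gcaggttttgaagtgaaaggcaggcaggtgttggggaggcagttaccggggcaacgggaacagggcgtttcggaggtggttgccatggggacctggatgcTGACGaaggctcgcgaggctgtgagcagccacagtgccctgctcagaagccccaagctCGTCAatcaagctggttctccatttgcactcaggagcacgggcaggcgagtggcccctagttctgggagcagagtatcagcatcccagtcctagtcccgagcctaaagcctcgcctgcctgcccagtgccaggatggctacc
Camk2b chr14:85147895-85148194 (minus strand): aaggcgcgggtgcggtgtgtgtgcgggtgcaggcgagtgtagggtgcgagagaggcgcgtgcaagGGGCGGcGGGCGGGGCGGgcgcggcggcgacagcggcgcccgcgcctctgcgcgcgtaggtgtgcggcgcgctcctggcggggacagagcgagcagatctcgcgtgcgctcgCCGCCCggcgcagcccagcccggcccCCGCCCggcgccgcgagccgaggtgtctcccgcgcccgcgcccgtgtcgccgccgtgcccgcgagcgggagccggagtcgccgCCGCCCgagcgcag
Camk2d chr2:217698301-217698600 (plus strand): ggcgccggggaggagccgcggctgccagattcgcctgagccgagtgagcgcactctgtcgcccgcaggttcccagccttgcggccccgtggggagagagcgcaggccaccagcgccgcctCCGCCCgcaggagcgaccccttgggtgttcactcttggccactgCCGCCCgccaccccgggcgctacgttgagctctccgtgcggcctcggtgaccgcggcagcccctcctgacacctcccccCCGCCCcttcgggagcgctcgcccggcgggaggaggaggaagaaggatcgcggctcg
Camk4 chr18:24856902-24857201 (plus strand): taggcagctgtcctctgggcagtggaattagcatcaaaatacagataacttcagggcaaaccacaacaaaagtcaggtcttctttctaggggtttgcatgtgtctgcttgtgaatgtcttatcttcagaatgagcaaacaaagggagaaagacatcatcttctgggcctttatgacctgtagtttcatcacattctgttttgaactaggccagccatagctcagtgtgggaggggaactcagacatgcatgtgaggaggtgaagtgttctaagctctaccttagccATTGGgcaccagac
Camk2a, with 61.3% G and C, held the core TGACG at 2 places and no GC box. Camk2b (81.3% G and C) held 6 GC boxes and Camk2d (74.7%) held 3. Camk4 (45.7%) held a single match, a CCAAT box after the start. The median over the 33469 rat promoters of the same length was 51.7% G and C. Of those promoters, 21.2% held TGACG, 33.1% the GC box, 37.5% the CCAAT box, 14.2% the TATA box and 1.83% the full cAMP response element, which none of these 4 held. Of the other members in the sequence table, Camk2n2 (79% G and C) held 6 GC boxes and the core TGACG once, and Camk2g (80%) held 9 GC boxes. These are matches of letters in a window and not measured binding sites.

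Between the tissues, the family split by subunit. Camk2a and Camk2b were higher in the hippocampus, whereas Camk2d, Camk2n1 and Camk4 were higher in the cortex, and Camk2g, Camk2n2 and Camkk2 did not pass the test. A gene was called where the adjusted p of a limma fit on all 16 arrays (Benjamini-Hochberg over 27342 clusters) was under 0.05. With the 4 combinations of diet and duration averaged, 5 of the 8 genes were called, against 9.67% of all clusters. The 2 calls toward the hippocampus stood against 6.05% of all clusters and the 3 toward the cortex against 3.63%. In these bulk samples, fewer cells of a type and less RNA per cell cannot be told apart.

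**Figure D1:**
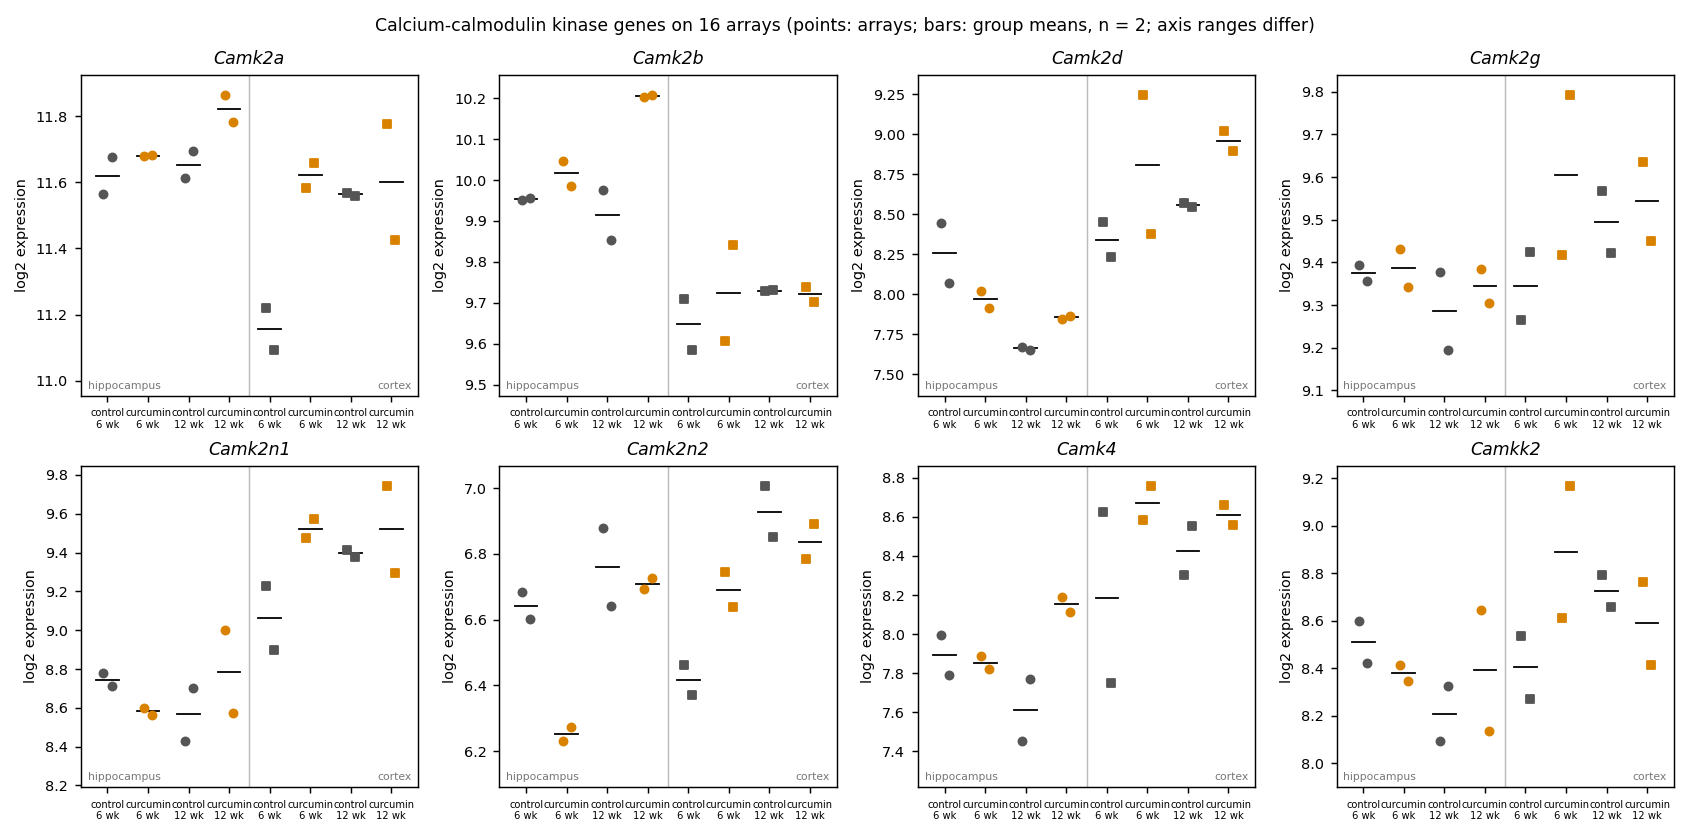
Log2 expression of the 8 genes on each of the 16 arrays, grouped by tissue, duration and diet (circles, hippocampus; squares, cortex; grey, control; orange, curcumin; bars, means of 2 arrays). Camk2b is above 9.85 on all hippocampal arrays and below it on all cortical ones, and Camk2a is lowest on the 2 arrays of the control cortex at 6 weeks.

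Camk2b encodes the beta subunit, which binds F-actin and anchors the kinase in dendritic spines. Its log2 expression averaged 10.02 ± 0.12 (SD, n = 8) in the hippocampus, with a lowest, median and highest array at 9.85, 9.98 and 10.21. In the cortex it averaged 9.71 ± 0.08 (SD, n = 8), with 9.59, 9.72 and 9.84. The lowest hippocampal array lay just above the highest cortical array, so the tissues did not overlap, which was so for 1.61% of all clusters and for none of the other 7 genes. The log2 difference was 0.32 (SE 0.039, limma adjusted p = 4.2e-04), or 1.25-fold.

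Camk2a encodes the alpha subunit, the main subunit in excitatory forebrain neurons. It averaged 11.69 ± 0.09 (SD, n = 8) in the hippocampus (lowest 11.56, median 11.68, highest 11.86) and 11.49 ± 0.23 (SD, n = 8) in the cortex (11.09, 11.56 and 11.77). The difference was 0.21 (SE 0.049, limma adjusted p = 0.0207). Most of it came from 1 combination. In the 6-week controls the hippocampus was higher by 0.46, whereas in the other 3 combinations it was higher by 0.06, 0.09 and 0.22, although in each of the 4 combinations both hippocampal arrays lay above both cortical arrays. Without the 2 control cortex arrays at 6 weeks the difference was 0.12 (SE 0.057) and no longer passed (limma adjusted p = 0.259), and the call was also lost when any of 4 single hippocampal arrays was left out (adjusted p between 0.0504 and 0.0593): replicate 2 of either group at 6 weeks, curcumin replicate 1 at 12 weeks or control replicate 2 at 12 weeks. Without both hippocampal replicate 2 arrays at 6 weeks, those with the choroid plexus markers, Camk2a was at 0.19 (adjusted p = 0.125), and the other 4 called genes of the family still passed.

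Camk2d encodes the delta subunit, which is also widespread outside the nervous system. It averaged 7.94 ± 0.25 (SD, n = 8) in the hippocampus (lowest 7.65, median 7.89, highest 8.45) and 8.67 ± 0.35 (SD, n = 8) in the cortex (8.23, 8.56 and 9.25). The cortex was thus 1.66-fold higher, a difference of -0.73 for hippocampus minus cortex (SE 0.11, limma adjusted p = 0.00128). In the 6-week controls the difference was only -0.08 and the arrays overlapped, and it ranged from -0.84 to -1.10 in the other 3 combinations, where all cortical arrays lay above the hippocampal ones. Without the 2 control cortex arrays at 6 weeks it was -0.95 (adjusted p = 0.00112). The gamma subunit gene, Camk2g, whose product can carry calmodulin toward the nucleus, differed least of the subunits and did not pass (difference -0.15, SE 0.060, limma adjusted p = 0.168).

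The inhibitor genes differed in size. Camk2n1, whose product binds the active kinase and blocks it, averaged 8.67 ± 0.17 (SD, n = 8) in the hippocampus (lowest 8.43, median 8.65, highest 9.00) and 9.38 ± 0.25 (SD, n = 8) in the cortex (8.90, 9.40 and 9.74). The cortex was 1.63-fold higher (difference -0.71, SE 0.084, limma adjusted p = 3.3e-04). The tissues overlapped only through the highest hippocampal array and the lowest cortical array, and within each of the 4 combinations of diet and duration both cortical arrays lay above both hippocampal ones. Camk2n2, which encodes the related second inhibitor, was at -0.13 (SE 0.043) and did not pass (limma adjusted p = 0.098). Its sign was not the same in all combinations: the hippocampus was higher by 0.23 in the 6-week controls and lower by 0.44 in the 6-week curcumin groups, with the arrays apart both times. Without the 2 control cortex arrays at 6 weeks, the Camk2n2 difference was -0.24 and passed (adjusted p = 0.0132).

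Camk4 averaged 7.88 ± 0.23 (SD, n = 8) in the hippocampus (lowest 7.45, median 7.85, highest 8.19) and 8.47 ± 0.32 (SD, n = 8) in the cortex (7.75, 8.57 and 8.76). The cortex was 1.51-fold higher (difference -0.60, SE 0.11, limma adjusted p = 0.00544). The lowest cortical value, 7.75, was that of replicate 2 of the 6-week controls, the array with the olfactory bulb markers. The next lowest cortical array was at 8.30, above all hippocampal arrays, and without both 6-week control cortex arrays the difference was -0.70 (adjusted p = 2.0e-04). Camkk2, the gene for the upstream kinase, which also activates AMPK, did not pass (-0.28, SE 0.10, limma adjusted p = 0.123).

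**Figure D2:**
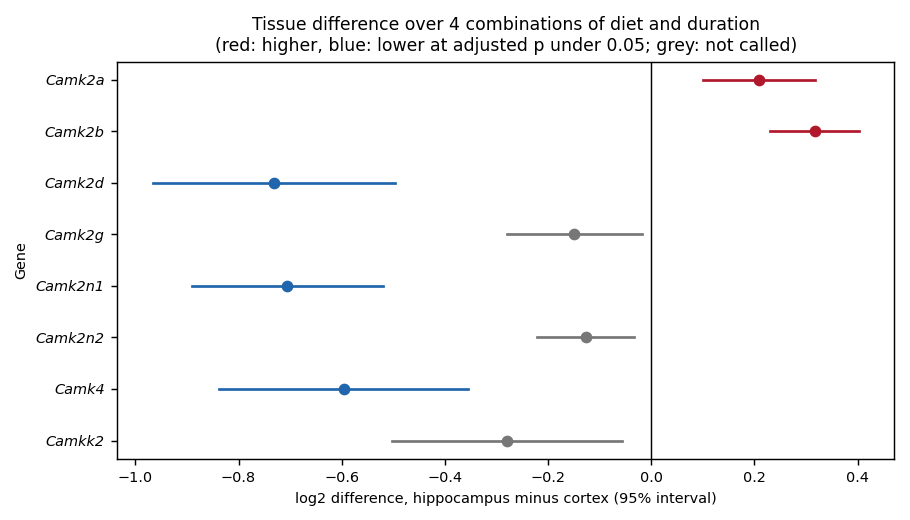
Difference between hippocampus and cortex in log2 expression for each gene, averaged over 4 combinations of diet and duration, with 95% intervals from the limma fit. Camk2a (0.21) and Camk2b (0.32) lie right of 0, and Camk2n1 (-0.71), Camk2d (-0.73) and Camk4 (-0.60) lie left of it among the called genes.

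Marker lists differed between the tissues as well, and their part in these differences was not tested. The 6 measured markers of excitatory projection neurons (Slc17a7 and Neurod6 the brightest) were all called higher in the hippocampus (median 0.44), whereas 2 of 8 markers of GABA interneurons were called higher in the cortex and none in the hippocampus (median -0.25). The 11 oligodendrocyte markers had a median of 0.23 with no gene called, and 5 of 7 astrocyte markers were called higher in the hippocampus (median 0.17). The striatal list averaged 6.75 on the hippocampal and 7.52 on the cortical arrays. The olfactory bulb list averaged 6.08 and 6.41, and the choroid plexus list 6.54 and 5.86, in the same order. No striatal, olfactory bulb or choroid plexus marker was called.

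Among 61 related genes of the pathway, listed with the members, 57 had a cluster, and 15 of them were called higher and 9 lower in the hippocampus (42.1% in all, against 9.67% of all clusters), with a median of 0.04 against 0.00 over all clusters. Of the 14 measured anchors and substrates of CaMKII at synapses, 5 were called higher in the hippocampus and none lower. These were Gria1 (0.85, SE 0.047), which encodes an AMPA receptor subunit, Grin2a (0.65, SE 0.066) and Grin2b (0.35, SE 0.045), which encode NMDA receptor subunits, Rem2 (0.42, SE 0.083), for a Ras-like GTPase, and the inositol trisphosphate kinase gene Itpka (0.62, SE 0.12), which was named after its value was seen. The 10 other calmodulin kinases went both ways, with 2 called in each direction. Camkk1, the paralog of Camkk2, was higher in the hippocampus by 0.40 (SE 0.058) and Camk1d by 0.42 (SE 0.070), while Camk1 (-0.37, SE 0.047) and Camk1g (-0.30, SE 0.076) were higher in the cortex. Of 6 calmodulin genes and calmodulin-binding buffers, Calm3, a calmodulin gene, was higher in the hippocampus (0.22, SE 0.029), and Pcp4l1 (-0.94, SE 0.19), Pcp4 (-0.58, SE 0.14) and Gap43 (-0.28, SE 0.043) were higher in the cortex. Among 12 genes of calcineurin and of phosphatases, 4 were called higher and 2 lower, with Ppm1e, a phosphatase that acts on CaM kinases, at 0.88 (SE 0.12) and Rcan2, a calcineurin regulator, at -0.47 (SE 0.073). Of 15 nuclear and AMPK targets, 3 were called higher, among them the neurotrophin gene Bdnf (0.30, SE 0.054) and Prkaa1 (0.29, SE 0.061), for a catalytic subunit of AMPK, and 2 lower, Mef2d (-0.17, SE 0.035) and Hdac5 (-0.22, SE 0.060), for a transcription factor and a histone deacetylase.

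To determine whether the curcumin diet changed these genes, curcumin and control arrays were compared in each tissue at each duration. None of the 8 genes was called in any of the 4 comparisons. The calls over all clusters were 0% and 0.00366% in the hippocampus at 6 and 12 weeks, and 0.106% and 3.24% in the cortex. The number of genes with an unadjusted limma p under 0.05 was 1, 2, 5 and 0 of 8 in the same order, against 2.03%, 5.11%, 12% and 15.1% of all clusters. No gene reached the fold rule of the study (at least 1.5 or at most 0.66 on group means) in any of these comparisons, a rule that 0.121%, 0.23%, 1.25% and 0.827% of all clusters met.

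**Figure D3:**
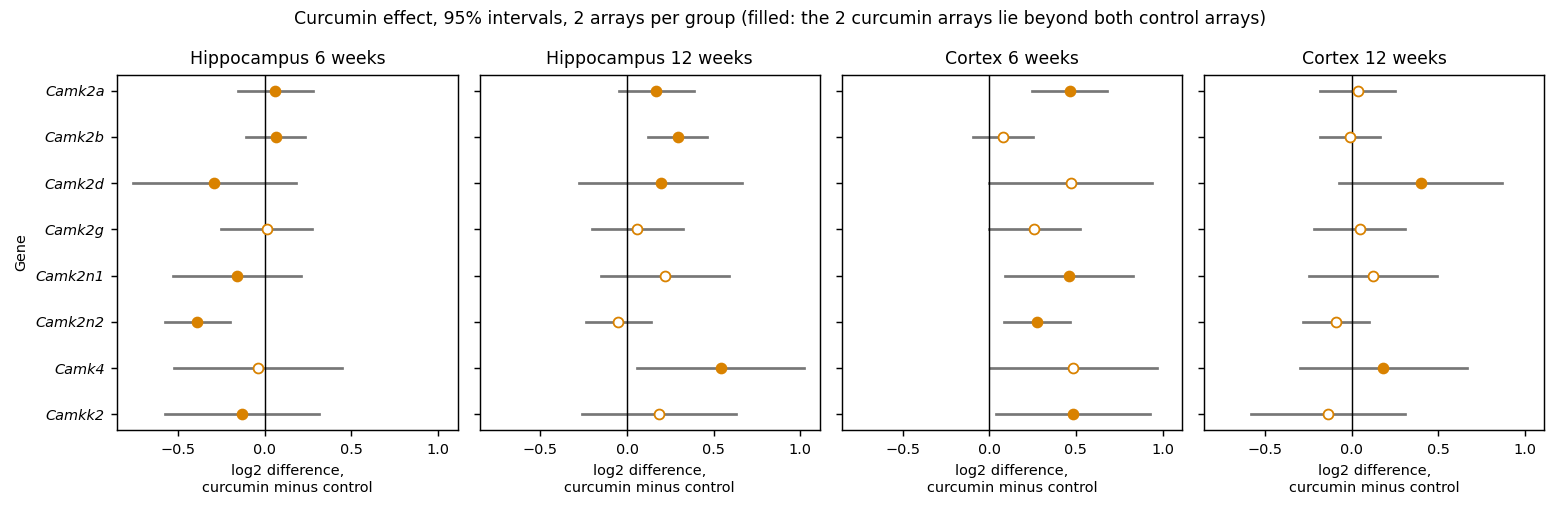
Difference between curcumin and control in log2 expression for each gene in the 4 comparisons, with 95% intervals from the limma fit on 16 arrays; filled points mark genes whose 2 curcumin arrays both lie above or both lie below the 2 control arrays. In the cortex at 6 weeks all 8 points lie above 0, between 0.08 and 0.49.

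In the hippocampus at 6 weeks the 8 differences had a median of -0.08 and lay between -0.39 and 0.06. The lowest was that of Camk2n2, the inhibitor gene. Camk2n2 was the dimmest of the 8 genes, with a mean of 6.65 over 16 arrays, at percentile 55.4 of all clusters. The other members lay between percentiles 82.9 and 99.6. Its curcumin arrays stood at 6.23 and 6.27 and its control arrays at 6.68 and 6.60. Both curcumin arrays were thus below both controls, and they were also the lowest of all 16 arrays for this gene. The difference was -0.39 (SE 0.086), the 10th by size of the moderated t among 27342 clusters, but its adjusted p was 0.9999, as no cluster was called in this comparison. The choroid plexus list stood at 8.17 and 8.72 in replicate 2 of the curcumin and control groups. In replicate 1 it stood at 5.69 with curcumin and at 6.50 in the control. Its part in the Camk2n2 difference was not tested. With both replicate 2 arrays left out the Camk2n2 difference was -0.45. Of the 8 genes, 6 had their curcumin and control arrays apart (2 higher, 4 lower), against 35% of all clusters.

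In the hippocampus at 12 weeks, 7 of the 8 differences were positive, with a median of 0.19. Camk2b stood at 10.20 and 10.21 with curcumin and at 9.98 and 9.85 in the controls. The curcumin arrays were the highest of all 16 for this gene, and the difference was 0.29 (SE 0.078, limma adjusted p = 0.738). Camk4 stood at 8.19 and 8.11 with curcumin and at 7.45 and 7.77 in the controls. That gave 0.54 (SE 0.22, limma adjusted p = 0.940), the largest difference of the 8 genes in this comparison, with control replicates further apart from each other than the curcumin replicates. Of the 8 genes, 4 had arrays apart, all 4 higher with curcumin, against 27.4% of clusters apart in either direction and 12.7% apart and higher. The dentate granule list stood at 7.05 and 7.24 with curcumin and at 6.89 and 6.90 in the controls. The GABA interneuron list stood at 7.94 and 7.86 with curcumin and at 8.05 on both control arrays. The arrays of the other marker lists overlapped. The part of these cells in the differences of the 8 genes was not tested.

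In the cortex at 6 weeks, all 8 differences were positive, with a median of 0.46 against 0.00 over all clusters. Camk2a stood at 11.58 and 11.66 with curcumin and at 11.22 and 11.09 in the controls. These 2 control arrays were the lowest of all 16 arrays for Camk2a. The difference was 0.46 (SE 0.099, limma adjusted p = 0.101), or 1.38-fold. Camk2n1 went from 9.23 and 8.90 in the controls to 9.47 and 9.57 with curcumin (0.46, SE 0.17, limma adjusted p = 0.294). Camkk2 went from 8.54 and 8.27 to 8.61 and 9.17 (0.49, SE 0.20, adjusted p = 0.362). Both genes had their arrays apart, as did Camk2n2 (0.28, SE 0.086, limma adjusted p = 0.225), and 4 of the 8 genes were apart and higher against 36.3% of clusters apart in either direction and 18.9% apart and higher. Camk4 stood at 8.63 and 7.75 in the controls and at 8.59 and 8.76 with curcumin, so its control arrays lay on either side of the lower curcumin array. Its difference of 0.48 (SE 0.22, limma adjusted p = 0.413) was 0.92 (adjusted p = 0.0116) with only the control array that held the olfactory markers kept, and 0.05 with only the other control array kept. In each case the control group was a single array, assumed to vary like the other groups. Without the array with the olfactory markers Camk2a was at 0.40, Camk2n1 at 0.30, Camk2n2 at 0.23 and Camkk2 at 0.35. The only control array behind these values, and behind the Camk4 value of 0.05, was control replicate 1. It held the striatal list at 9.00 and the oligodendrocyte list at 9.64, the highest of all 16 arrays for both lists. Camk2a passed with a variance trend and robust estimation (limma adjusted p = 0.0366). Its adjusted p was 0.0497 without control replicate 1, a fit whose lone control was the array with the olfactory markers.

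Lists of other cell types moved in the same comparison. The excitatory neuron list stood at 8.08 and 7.89 in the 6-week control cortex and between 8.55 and 8.82 on the other 6 cortical arrays, with all 6 measured genes positive (median 0.81, 2 called higher). All 11 measured oligodendrocyte markers (Mbp and Mobp the brightest) were lower with curcumin (median -0.81, none called), at 9.64 and 9.21 in the controls and 8.19 and 9.09 with curcumin. The olfactory bulb list had a median of -1.16 and the striatal list of -0.50, with 6 of 6 genes negative in each and none called. The part of these cells in the differences of the 8 genes was not tested.

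**Figure D4:**
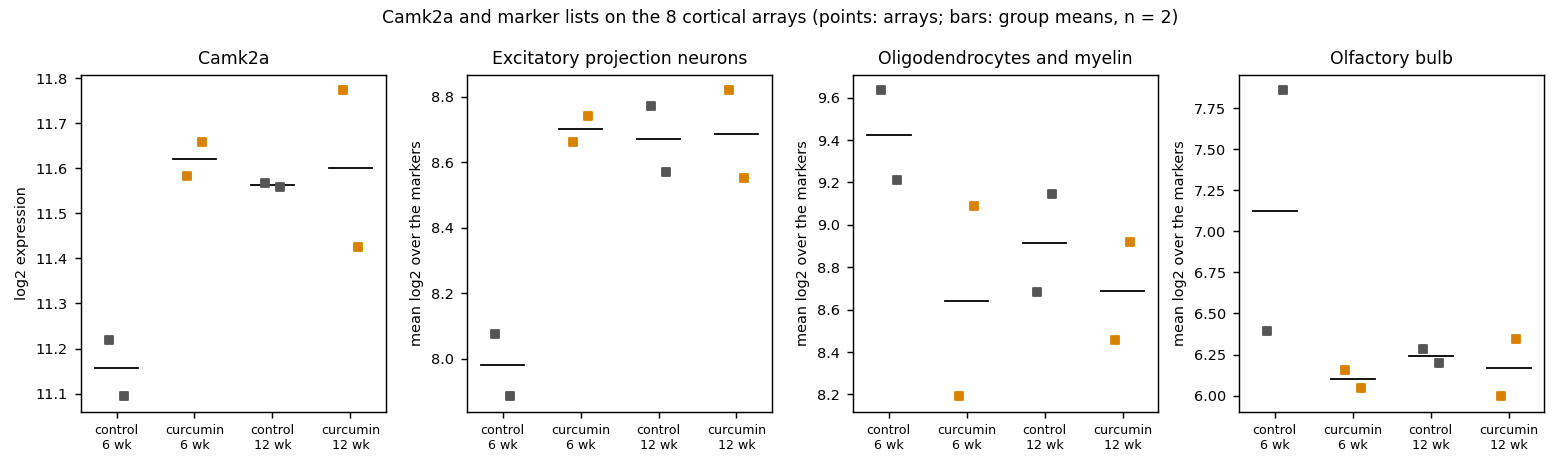
Log2 expression of Camk2a and the mean log2 expression of 3 marker lists on the 8 cortical arrays (grey, control; orange, curcumin; bars, means of 2 arrays). The 2 control arrays at 6 weeks are lowest for Camk2a (11.22 and 11.09) and for the excitatory neuron list (8.08 and 7.89).

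In the cortex at 12 weeks, 5 of 8 differences were positive, with a median of 0.04. Camk2d was the largest. It stood at 9.02 and 8.90 with curcumin and at 8.57 and 8.54 in the controls, a difference of 0.40 (SE 0.21, limma adjusted p = 0.443) with the arrays apart. Camk2a, at 0.04 (95% interval -0.18 to 0.25), and Camk2b, at -0.01 (95% interval -0.18 to 0.16), had overlapping arrays. In all, 2 of 8 genes had arrays apart, against 44.3% of all clusters.

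Whether the curcumin effect depended on duration or tissue was tested with the differences of differences in the same fit, and none of the 8 genes was called. For Camk2n2 at 6 weeks the effect was -0.39 in the hippocampus and 0.28 in the cortex, and the difference between the tissues was 0.66 (SE 0.12, limma adjusted p = 0.467). It was 8th of 27342 clusters by size of the moderated t, in a comparison in which 0% of clusters were called. The cortical effect of Camk2a at 12 weeks minus that at 6 weeks was -0.43 (SE 0.14, limma adjusted p = 0.162). It rested on single arrays: it was -0.60 without curcumin cortex replicate 1 at 12 weeks (adjusted p = 0.0303) and -0.25 without replicate 2 of that group (adjusted p = 0.407). In the cortex all 8 genes had a lower effect at 12 than at 6 weeks (median -0.32). In the hippocampus all 8 had a higher effect at 12 weeks (median 0.33). The medians over all clusters were 0.00 in both, and 1.47% and 0% of clusters were called in either direction. In the cortical comparison the excitatory neuron markers were all negative, with Slc17a7 (-0.63) and Neurod6 (-1.32) among those called lower. The oligodendrocyte markers were all positive and none was called. The part of these cells was not tested.

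The control groups of both durations were also compared with each other, since they are the reference of the curcumin effects. Duration, the age at killing and any difference in processing between the durations cannot be told apart here. In the cortex, Camk2a and Camk2n2 were higher at 12 than at 6 weeks, and the other 6 genes did not pass, so 2 of 8 were called, against 8.85% of all clusters in either direction and 5.42% higher. Camk2n2 stood at 6.46 and 6.37 at 6 weeks and at 7.01 and 6.85 at 12 weeks. The arrays were well apart, and the difference was 0.51 (SE 0.086, limma adjusted p = 0.00656), or 1.43-fold. Camk2a stood at 11.22 and 11.09 at 6 weeks and at 11.57 and 11.56 at 12 weeks, a difference of 0.41 (SE 0.099, limma adjusted p = 0.0282). All 8 differences were positive (median 0.28), and 6 of 8 genes had arrays apart and higher, against 26.3% of all clusters. The Camk2a call was lost with quantile normalization over all arrays (0.33, adjusted p = 0.0858), in a fit on the cortical arrays alone (adjusted p = 0.117), and without control replicate 2 at 6 weeks or either 12-week control array (adjusted p between 0.106 and 0.176). The Camk2n2 call was lost without control replicate 2 at 6 weeks, the array with the olfactory markers (0.47, adjusted p = 0.0589), or control replicate 1 at 12 weeks (adjusted p = 0.0714).

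This comparison and the curcumin effect in the cortex at 6 weeks share the 6-week control arrays, so they are not independent. Side by side, Camk2a was at 0.41 between the control groups and at 0.46 for curcumin, Camk2n1 at 0.33 and 0.46, Camk2n2 at 0.51 and 0.28, Camkk2 at 0.32 and 0.49, and Camk2d at 0.22 and 0.47. Several of these values rested on single arrays. For curcumin, Camk2d was at 0.034 without curcumin replicate 1 and at 0.90 without curcumin replicate 2, and Camkk2 was at 0.76 and 0.21 in the same order. Between the control groups, Camk2d was at 0.11, Camk2n1 at 0.17 and Camkk2 at 0.19 without replicate 2 of the 6-week controls, and at 0.33, 0.50 and 0.46 without replicate 1. The excitatory neuron markers had a median of 0.77 between the control groups (4 of 6 called higher) and the oligodendrocyte markers of -0.52 (11 of 11 negative, none called). The olfactory bulb markers had a median of -0.83 (1 of 6 called lower, Pbx3), the GABA interneuron markers of -0.32 (2 of 8 called lower and 1 higher), the dentate granule markers of -0.36 (2 of 4 called lower) and the microglia markers of -0.13 (1 of 9 called lower). The part of these cells in the differences of the 8 genes was not tested here either.

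In the hippocampus, no gene was called between the control groups, against 4.27% of all clusters, and 6 of 8 differences were negative. Camk2d was the furthest from 0. It stood at 8.45 and 8.07 at 6 weeks and at 7.67 and 7.65 at 12 weeks, so the arrays were apart and the 12-week controls were the lowest of all groups. The difference was -0.60 (SE 0.21, limma adjusted p = 0.162) and passed in a fit on the 8 hippocampal arrays alone (adjusted p = 0.0405). On the same arrays the choroid plexus list stood at 6.50 and 8.72 at 6 weeks and at 5.74 and 5.78 at 12 weeks. Its genes were all lower at 12 weeks, Ttr by the most (-4.25), and none was called. Among the other lists, the dentate granule marker Pdzd2 was called lower (-0.45) and a microglia marker was called higher (0.47). The dentate granule list stood at 7.12 and 7.17 at 6 weeks and at 6.89 and 6.90 at 12 weeks. The part of these cells in the Camk2d difference was not tested.

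The 57 measured pathway genes were read in the same comparisons. None of them was called for curcumin in the hippocampus at either duration, and 1 (1.75%, against 0.106% of all clusters) in the cortex at 6 weeks. That was Syn1, the gene for the CaMKII substrate synapsin 1 (0.50, SE 0.073, limma adjusted p = 0.0488). In the cortex at 12 weeks 4 were higher, namely Grin1, for the obligatory NMDA receptor subunit (0.44, SE 0.075), Kalrn (0.47, SE 0.074), Syn1 (0.35, SE 0.073) and Crebbp (0.36, SE 0.067), and 1 was lower, the phosphatase gene Ppp1cb (-0.37, SE 0.073). These were 8.77% of the pathway genes, against 3.24% of all clusters. Between the control groups in the cortex 7 were higher, among them Nrgn, for the calmodulin-binding neurogranin (0.72, SE 0.17), Prkaa2, for a catalytic subunit of AMPK (0.66, SE 0.12), and Camkk1 (0.42, SE 0.12), and 2 were lower, in all 15.8% against 8.85% of all clusters. In the hippocampus 3 were lower at 12 weeks, Ppp1r1a (-0.61, SE 0.14), Kalrn (-0.50, SE 0.074) and Dapk1 (-0.38, SE 0.079), and none higher (5.26%, against 4.27% of all clusters). For the change of the cortical curcumin effect with duration, only Gap43 was called, as lower (-0.60, SE 0.12). That was 1.75% of the pathway genes, against 1.47% of all clusters. No pathway gene was called in the other differences of differences.

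Over the 8 groups, the order of the mean levels differed among the genes. Camk2a and Camk2b were both lowest in the control cortex at 6 weeks (11.16 and 9.65) and highest in the curcumin hippocampus at 12 weeks (11.82 and 10.21). Camk2d, Camk2g, Camk2n1, Camk4 and Camkk2 were all lowest in the control hippocampus at 12 weeks, and all but Camk2d, which was highest in the curcumin cortex at 12 weeks, were highest in the curcumin cortex at 6 weeks. Camk2n2 ran from 6.25 in the curcumin hippocampus at 6 weeks to 6.93 in the control cortex at 12 weeks. The widest span of group means was that of Camk2d (1.30) and the narrowest that of Camk2g (0.32). Most neighbours in these orders were not separated: of 7 neighbouring pairs of groups, the arrays overlapped in all 7 for Camk2g, in 6 for Camkk2, in 5 for Camk2a, Camk2n1 and Camk2n2, in 4 for Camk2b and Camk4 and in 3 for Camk2d.

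Within a tissue, arrays of high Camk2n1 tended to be arrays of high Camkk2, with Pearson's r of 0.88 over the 8 hippocampal and 0.76 over the 8 cortical arrays. Camk2a followed Camk2n1 in the cortex (r = 0.96) and less in the hippocampus (r = 0.49), and followed Camk2b with r = 0.75 in the hippocampus and 0.58 in the cortex. The kinase Camk4 and its upstream kinase gene Camkk2 gave 0.56 and 0.62. These correlations are descriptions over arrays that share diets, durations and the marked RNA of other regions. Over 14316 other genes, those most like a member by the lower of its r in the 2 tissues were Dagla (0.88), Gria3 (0.87) and Slc30a3 (0.86) for Camk2a, Tspan5 (0.77), Egr3 (0.77) and Rasgrp1 (0.74) for Camk2b, and Usp2 (0.89), Rgs7bp (0.85) and Dagla (0.84) for Camk4. For the inhibitors they were Ephx4 (0.88), Flrt2 (0.85) and Neurod2 (0.85) for Camk2n1 and Ndrg3 (0.90), Lhpp (0.87) and Spryd3 (0.86) for Camk2n2. Srpk2, Zfp365 and Ttl were nearest to Camkk2 (0.88, 0.87 and 0.87), Kcnn1 to Camk2g (0.85) and Cntn5 to Camk2d (0.82). These genes were picked as the highest of 14316 over 8 arrays per tissue. How high such picked values run by chance was not tested.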

How the data were processed

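The log2 values used here are those the authors deposited. They were made with Affymetrix Expression Console and RMA, and the methods also name Gene Spring, in versions not given in the sources used here. Array medians lay between 6.35 and 6.44, with 0 missing values. Probe-level data were not used. The methods name a rat exon array, but the annotation of the clusters belongs to a rat gene array. Genes were named through that annotation, with coordinates and promoters from RefSeq (GRCr8). No sequence is shown for Camk2n1 or Camkk2.

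The 8 group means were fitted with limma 3.58.1 in R 4.3.3 (8 residual and 3.12 prior degrees of freedom). Each of the 11 comparisons had its own Benjamini-Hochberg adjustment over 27342 clusters. Figures used matplotlib 3.10.9 in Python 3.11.15. The steps were tested on simulated data. Groups came from the labels. Other settings tried were the removal of dim clusters, quantile normalization, fewer arrays, array weights, a variance trend, replicate and pool blocks (statmod 1.5.0), the fold rule, all clusters of a gene, and an exact permutation test. Leaving out both control cortex arrays at 6 weeks, or both hippocampal replicate 2 arrays at 6 weeks, was chosen after seeing the data. Named are the 8 genes, at most 4 called genes of each pathway list with the largest moderated t, at most 2 of the brightest genes of each marker list, and at most 3 genes most like each member. Itpka was named outside this rule, after its value was seen. The members and lists were chosen with earlier results of these data known. The number of arrays limits the precision.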

Additional observations from a re-analysis of the deposited data

How the results depend on the processing

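The differences between the tissues of Camk2b, Camk2d, Camk2n1 and Camk4 kept their direction and passed in each of 26 alternative limma fits, including each array left out in turn (adjusted p at most 0.00638, 0.0164, 0.00619 and 0.0479). Camk2a kept its direction in all 26 and passed in 20, with differences from 0.12 to 0.25. When each array was left out in turn, the number of genes called ranged from 4 to 7 between the tissues, from 0 to 3 between the control cortex groups, from 0 to 2 for curcumin in the cortex at 6 weeks and from 0 to 1 for the change of the cortical effect with duration, and was 0 in the other 7 comparisons. Quantile normalization left 1 call between the control cortex groups, whether run on all arrays together or on each tissue by itself, as did a fit on the cortical arrays alone. A fit on the hippocampal arrays alone gave 1 call between the control groups there, and a variance trend with robust estimation gave 1 for curcumin in the cortex at 6 weeks. The shares of all clusters called were not computed for these altered fits or for the replicate block below. These counts of called genes therefore have no reference share. By the fold rule, with no test, 2 genes differed between the tissues and 0 between the control cortex groups. It was met by 1 gene in the change of the cortical effect with duration and by 4 in the tissue difference of the 6-week effect. The shares of all clusters that met the rule were 1.21%, 3.08%, 3.75% and 1.27% in the same order.

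For curcumin in the cortex at 12 weeks, the Camk2b difference turned from -0.01 to 0.040 and 0.042 under the quantile settings and ran from -0.028 to 0.0097 with single arrays left out, and that of Camk2a ran from -0.14 to 0.21. The cause of these shifts was not tested. For 60 further values of members, not given one by one in the report, the alternatives far outnumbered the values. Over all these alternatives together, 42 had the opposite sign, none of them of a called difference. The 42 thus counts alternatives and not values. The largest main value that reversed was 0.30 in size. The number called in an alternative was 1.

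The labels give the groups the same replicate numbers. With the replicate number as a block, 5 genes were called between the tissues, 2 between the control cortex groups and 0 in each of the other 9 comparisons, the same counts as without it. By the methods, hippocampus and cortex were taken from the same rats, but the labels do not say which pools match. The main fit treated the 16 arrays as independent. The numbers were not taken to pair the arrays. The deviations from the group means of the arrays with the same number in both tissues correlated at 0.12, 0.16, -0.15 and 0.15. With arrays of the same number as a random block for the pool, the consensus correlation of the 2 tissues was 0.039. For a comparison of 2 arrays with 2, an exact permutation test cannot give a p under 0.333. Signal over background was not measured here.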
